A study of Drosophila melanogaster with 8 samples.

Results

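Heads of flies with heat-induced EYA E728Q were compared with heads of control flies. Eyes absent (EYA) is a transcriptional coactivator that works with the homeodomain protein Sine oculis in the gene network of eye specification, and it is also a protein phosphatase of the haloacid dehalogenase family. The comparison rests on 4 of the 8 arrays of the series, 2 of E728Q heads and 2 of control heads. It covers 18769 Affymetrix probe sets, of which the 11261 with the highest mean signal over all 8 arrays were tested. One probe set per gene, that of highest mean, gave 8660 genes.

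The E728Q flies carried the driver Hsp-Gal4, in which a heat-shock promoter makes the yeast activator GAL4, and the transgene UAS-EYA-E728Q, whose mutation leaves little if any phosphatase activity according to the series. A second pair of arrays came from flies with Hsp-Gal4 and UAS-EYA-wildtype, and another from flies with Hsp-Gal4 and UAS-EYA-D493N, a mutation that lowers the phosphatase activity. Control flies were of the strain W1118, named for its white-eye mutation, and had neither driver nor transgene. Adult males and females of all 4 groups were raised at 25 C, given 1 h at 37 C and left for 3 h at 25 C. A heat-shock promoter acts throughout the body, so the transgene was not limited to eye or neurons. Heads were broken off frozen flies by vortexing, and RNA came from 200 heads, in 4 lots of 50. Since controls lacked the driver as well, the effects of EYA E728Q, of the driver and of strain background cannot be told apart in this comparison. Whether the 2 samples of a group were separate cultures is not stated in the labels, so p-values measure only the spread between these samples, which may be technical. In such bulk samples, fewer cells of a type and less RNA per cell cannot be told apart either.

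Replicates correlated across tested probe sets with r of 0.988 in E728Q heads and 0.990 in control heads, where probe sets are not independent. RNA integrity was read from the actin gene Act5C, whose 3' over 5' signal was 4.84 and 5.11 on the E728Q arrays, against 4.15 and 4.29 on the control arrays. It was higher on both E728Q arrays, as was the ratio of the Gapdh control, at 1.94 and 2.03 against 1.72 and 1.78. A second actin control overlapped, with 2.07 and 1.62 on the E728Q arrays and 1.58 and 1.72 on the control arrays. The Act5C ratio was 5.63 and 6.26 on the D493N arrays. The part of RNA integrity in the results below was not tested. The material carried the markers of heads. The photoreceptor genes chp, trp, trpl and inaD had signals of 7597 to 19236 in E728Q heads and 6946 to 19358 in control heads. Of these, inaD (0.19) was called, though not under 8 alternatives, and the other 3 were not. Of the 8 tested neuron markers none was called in limma, with 1 at an unadjusted p under 0.05. Markers of the midgut were low in sum, at 645 and 2345 in E728Q heads, against 1147 and 918 in control heads, with no member called among 11 in limma and 2 higher and 1 lower at an unadjusted p under 0.05. The midgut sum was high on E728Q replicate 2, and its part in the results was not tested. Muscle genes summed to 218600 and 176780 in E728Q heads, against 178700 and 187940 in control heads, with 1 of 23 called. Testis genes summed to 692 and 959 in E728Q heads and 2697 and 2279 in control heads, with 2 of 10 lower. The 4 tested accessory gland and ejaculatory bulb genes summed to 22821 and 22652 in E728Q heads and 24238 and 22326 in control heads. None of them was called. How much tissue from outside the head was present was not tested.

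The E728Q heads differed from control heads over a wide set of genes, and in both directions about equally. Nimrod family genes, clock genes and several metallopeptidases were among those higher. Genes for purine synthesis, fat storage, the proteasome and immune peptides were among those lower. A gene is called changed here at a Benjamini-Hochberg adjusted p under 0.05 in limma. Of 11261 probe sets, 2648 were called, or 23.5%, with 1330 higher and 1318 lower. By gene, 1103 of 8660 were higher in E728Q heads (12.7%) and 1078 were lower (12.4%). These 2 shares are the background for each count of list members below. Among the called genes, 308 were higher and 237 lower by at least 2-fold, and the median log2 fold change of all genes was close to 0, at -0.0042. Calls were made for 7.41% of the 2253 probe sets of lowest mean signal and for 32.2% of the 2252 of highest. When one array was left out, 1483 to 1632 probe sets were called. Genes named as risen or fallen below kept their call under every alternative setting in which they were tested, unless the exception is given. Precision is limited by having 2 arrays in each group.

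**Figure D1:**
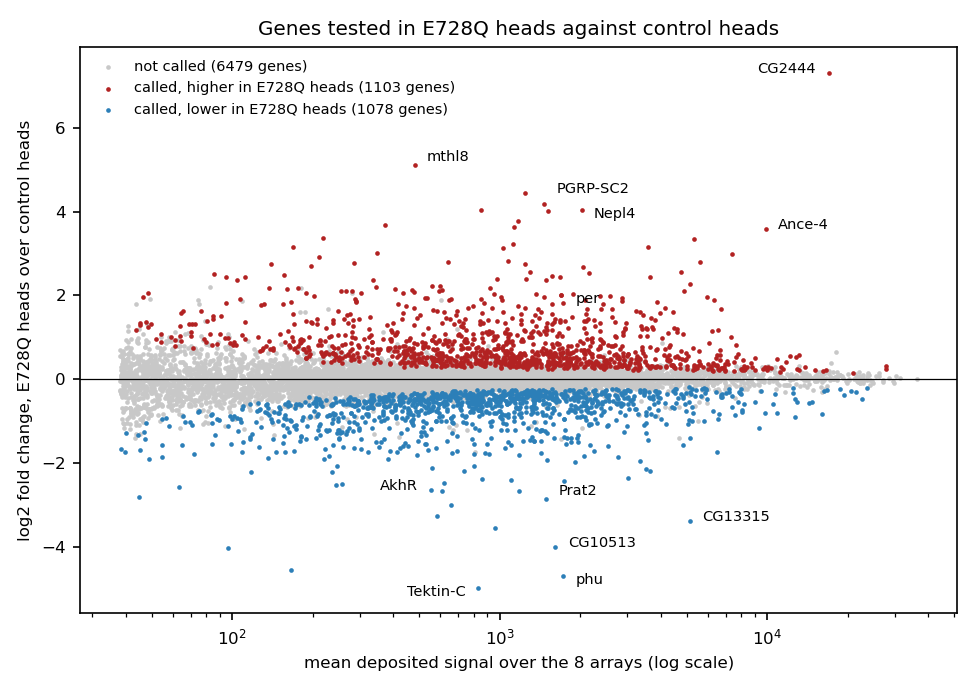
Log2 fold change of E728Q heads over control heads (vertical axis) against mean deposited signal over the 8 arrays (horizontal log axis) for 8660 genes, with 1103 called higher in red, 1078 called lower in blue and the rest in grey. The largest changes, from CG2444 at 7.32 to Tektin-C at -4.98, lie far outside the grey band, which narrows as signal grows.

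The eya probe set itself was not called. Its signal was 1386 and 1140 in E728Q heads and 991 and 918 in control heads. Both E728Q arrays were above both control arrays, with a log2 fold change of 0.35 ± 0.12 (SE) and an adjusted p of 0.0707. In the other transgenic groups it was 916 and 915 with wild-type EYA and 1240 and 1554 with D493N. Whether the probes lie within the part of the transcript that the transgene carries could not be looked up here, so this is no check of induction.

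The genes with the largest increases were low in control heads, and CG2444, the largest, was high in every group with driver and transgene. CG2444, a gene with no assigned function in the files, had signals of 21101 and 21599 in E728Q heads, against 149 and 92.1 in control heads. Both control arrays were far below all other arrays for CG2444, with a log2 fold change of 7.32 ± 0.15 and an adjusted p of 4.26e-08. Its signal was 22358 and 20032 with wild-type EYA and 24973 and 25664 with D493N. The Methuselah-like G-protein-coupled receptor gene mthl8 had 775 and 785 in E728Q heads, against 4.86 and 6.2 in control heads. The log2 fold change of mthl8 was 5.11 ± 0.12 (adjusted p = 5.9e-08). It ran from 3.05 to 6.34 over the alternatives, since control signals were near the pseudocount. A second mthl8 probe set changed by 4.36. Against wild-type EYA heads, mthl8 was higher by 0.80 in E728Q heads (limma adjusted p = 0.0238), a call lost under 6 alternatives.

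Enzymes and secreted proteins made up much of the rest. GstD9, a glutathione transferase, had 1992 and 2083 in E728Q heads and 75.1 and 75.6 in control heads (log2 fold change 4.45 ± 0.16, adjusted p = 8.72e-07). PGRP-SC2, an amidase that cleaves bacterial peptidoglycan, had 1683 and 2691 in E728Q heads and 103 and 95.5 in control heads (4.19 ± 0.19, adjusted p = 2.82e-06). The E728Q replicates of PGRP-SC2 differed more than those of GstD9, yet both were far above control. The neprilysin-like metallopeptidase gene Nepl4 had 2740 and 3060 in E728Q heads, against 161 and 150 in control heads (4.05 ± 0.11, adjusted p = 1.91e-07). Ance-4, of the angiotensin-converting enzyme family, had 10985 and 13220 in E728Q heads and 1008 and 933 in control heads (3.58 ± 0.11, adjusted p = 4.74e-07). Its high level in control makes it one of few genes in this set that was well measured in both groups. The gene prc, for the collagen-like heart matrix protein Pericardin, had 1917 and 1937 in E728Q heads and 96.2 and 105 in control heads (4.02, adjusted p = 8.32e-07). The cyclin-dependent kinase gene Eip63E rose by 3.78, with 1591 and 1508 in E728Q heads and with control arrays that differed from each other, at 140 and 63.6. The genes CG14949, CG3706, CG3770, CG2652, CG4752, CG12105 and CG3397 completed the 15 with the largest increases, with log2 fold changes of 3.16 to 4.05. CG3706, CG2652 and CG3397 had control signals under 20, and their values fell as low as 1.50 with a larger pseudocount. Against wild-type EYA heads, CG12105 was lower in E728Q heads (-0.57, limma adjusted p = 0.0431), a call lost under 8 alternatives.

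Among the largest decreases were a sperm flagellum gene, a lipase-like gene and the first steps of purine synthesis. Tektin-C, a tektin of sperm tails, had 78.5 and 9.75 in E728Q heads, against 1695 and 1444 in control heads. Both E728Q arrays were low but far apart, with a log2 fold change of -4.98 ± 0.46 and an adjusted p of 0.000108. The gene phu had 170 and 275 in E728Q heads and 6728 and 5814 in control heads (-4.70 ± 0.22, adjusted p = 3.47e-06). It was 258 and 187 with wild-type EYA and 176 and 231 with D493N, so phu was low in all heads with driver and transgene. CG10513 had 303 and 286 in E728Q heads, against 5625 and 4733 in control heads (-4.01, adjusted p = 0.000298). CG13315, the most abundant of these genes in control heads, had 1094 and 2058 in E728Q heads and 17038 and 15008 in control heads (-3.40, adjusted p = 3.03e-05). The lipase-like gene CG5966 had 163 and 378 in E728Q heads and 3326 and 3001 in control heads (-3.57, adjusted p = 0.000144). For CG13315 and CG5966 the E728Q arrays differed from each other, and both stayed well under control. CG42329, CG34217 and Alp9, an alkaline phosphatase gene, had signals under 10 on both E728Q arrays, so their log2 fold changes of -4.57, -4.03 and -2.82 depend on the pseudocount. CG6067 (-3.26), the odorant-binding protein gene Obp99a (-3.01) and CG33296 (-2.66) fell as well. CG32437 had 35.2 and 9.32 in E728Q heads and 180 and 228 in control heads, and without control replicate 2 it was no longer called (adjusted p = 0.0563).

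**Figure D2:**
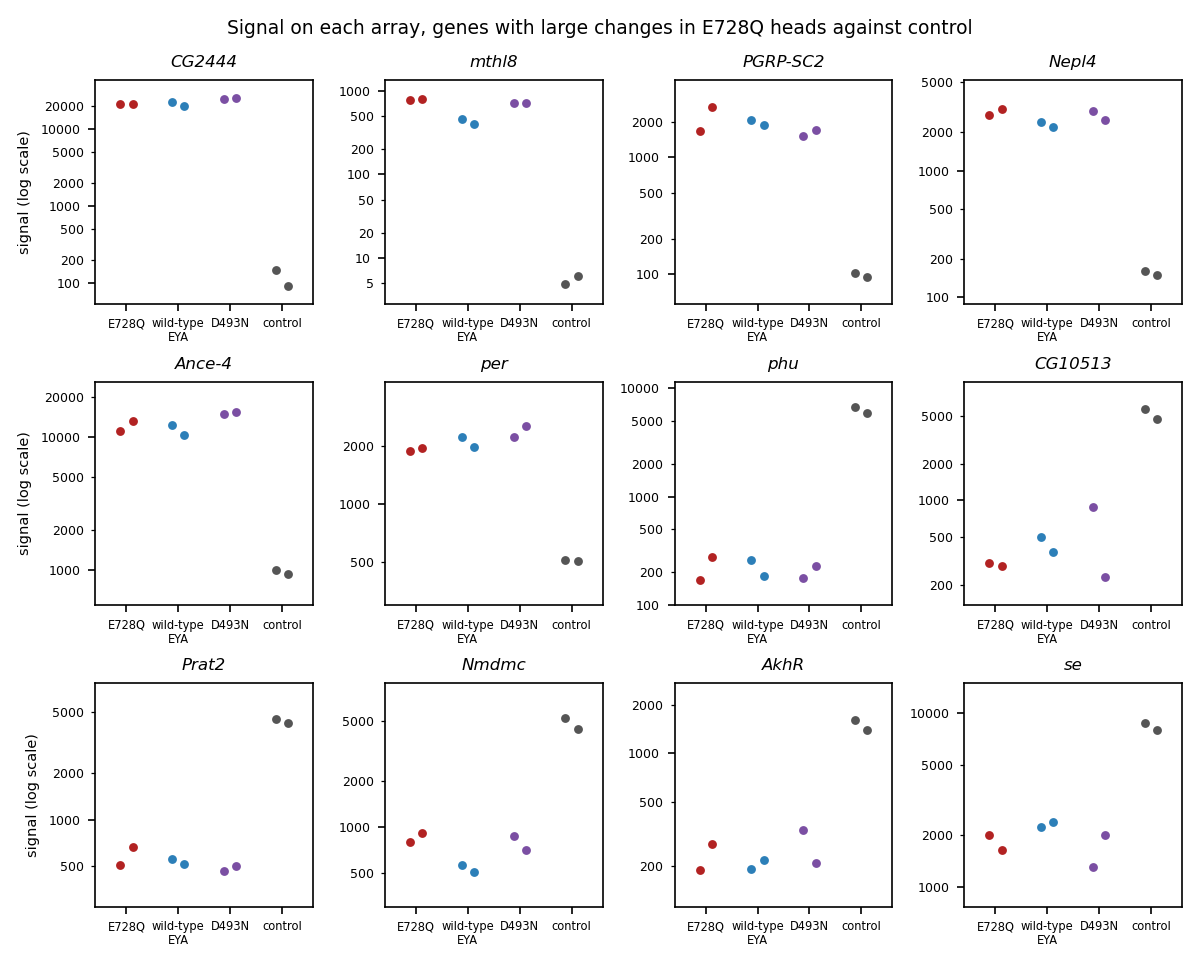
Deposited signal (log axis) on each of the 8 arrays for 12 genes, each point an array, with E728Q, wild-type EYA, D493N and control heads from left to right. In each panel the E728Q points stand apart from the control points, above them for CG2444, mthl8, PGRP-SC2, Nepl4, Ance-4 and per and below them for phu, CG10513, Prat2, Nmdmc, AkhR and se.

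Purine synthesis and the folate cycle that feeds it with carbon units were lower in E728Q heads. The pathway builds the purine ring on ribose phosphate in a chain of steps, and tetrahydrofolate carries carbon to several of them. Of 22 tested members, 13 fell and 4 rose, with a median log2 fold change of -0.59. Leaving out one array gave 11 to 13 lower and 4 higher each time. Prat2, which catalyses the committed first step, had 505 and 665 in E728Q heads, against 4523 and 4207 in control heads (-2.87 ± 0.13, adjusted p = 2.82e-06). The multifunctional enzyme gene Gart had 448 and 569 in E728Q heads and 3393 and 3158 in control heads (-2.67 ± 0.13, adjusted p = 4.67e-06). For both genes the control arrays were well above all 6 arrays with a transgene, which lay between 462 and 665 for Prat2 and between 394 and 569 for Gart. Later steps fell less. Pfas fell by 0.90, Paics by 0.79 and Adsl by 0.67, with Paics at 6533 and 7903 in E728Q heads and 13541 and 12067 in control heads.

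In the folate branch, Nmdmc, a mitochondrial methylenetetrahydrofolate dehydrogenase, had 800 and 912 in E728Q heads, against 5189 and 4377 in control heads (-2.42 ± 0.12, adjusted p = 3.66e-06). Shmt, which takes carbon from serine, fell by 1.05. The adenosine deaminase genes Adgf-D and Adgf-A fell by 0.99 and 0.65, and ry, xanthine dehydrogenase, by 0.75. The 4 that rose were Mthfs, mal, Prat and Adss. Mthfs, which returns a storage form of folate to the cycle, had 1204 and 1967 in E728Q heads and 397 and 318 in control heads (2.04 ± 0.27, adjusted p = 0.000748). Prat, the paralog of Prat2, had 649 and 752 in E728Q heads and 302 and 333 in control heads (1.07 ± 0.14, adjusted p = 0.000749). The 2 paralogs of the first step thus moved in opposite directions. The sulfurase gene mal, needed for xanthine dehydrogenase activity, rose by 1.32 while ry fell. Gnmt (-0.95) was no longer called without control replicate 1 (adjusted p = 0.0942) or without E728Q replicate 1 (adjusted p = 0.0895), and Ahcy (-0.54) not without E728Q replicate 1 (adjusted p = 0.0501). The genes ras, bur, pug, Sardh and veil were not called, with log2 fold changes of -0.42 to 0.30.

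Secreted and storage products of the fat body, the insect counterpart of liver and adipose tissue that also lines the head, were mostly lower. Of 18 tested members 14 fell and 2 rose, with a median of -0.66, and 11 to 13 were lower when one array was left out. The satiety-related gene fit had 1109 and 1073 in E728Q heads, against 6281 and 5272 in control heads (-2.36 ± 0.19, adjusted p = 4.58e-05). It was 4133 and 2968 with wild-type EYA and 1997 and 1321 with D493N, so E728Q arrays were the lowest of the 8. The difference from D493N was not called, and the call against wild-type EYA (-1.74) was lost under 3 alternatives. The clotting gene fon had 2960 and 2975 in E728Q heads and 9668 and 8510 in control heads (-1.57 ± 0.09, adjusted p = 1.08e-05). Cyp4g1, a P450 of oenocytes and fat body used in making cuticular hydrocarbons, had 106 and 129 in E728Q heads and 578 and 610 in control heads (-2.22, adjusted p = 0.000251). The lipid carriers Apoltp and NLaz fell by 0.75 and 0.69. Obp99b had 682 and 1014 in E728Q heads and 2005 and 3013 in control heads, and it was no longer called without control replicate 2 (adjusted p = 0.0596) or without E728Q replicate 1 (adjusted p = 0.0559).

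Not every fat body gene followed. Yp1, a yolk protein gene, was at 29054 and 28398 in E728Q heads and 29705 and 27300 in control heads and was not called, nor was Yp3 (-0.15). Yp2 (-0.47) was called, but not on deposited values without quantile normalization (adjusted p = 0.0515). The storage protein gene Lsp2 rose, with 3788 and 4352 in E728Q heads and 1226 and 1423 in control heads (1.60 ± 0.20, adjusted p = 0.000633). The iron carrier gene Tsf1 rose by 0.60, though its second probe set was not called (0.16). Summed over the list, signals were 116290 and 120030 in E728Q heads and 151360 and 140800 in control heads.

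Genes of lipid storage and use were lower as well. In fatty acid synthesis and desaturation, which in this list includes triglyceride assembly, 8 of 16 fell and 2 rose (median -0.34, with 5 to 7 lower when one array was left out). The diacylglycerol acyltransferase gene mdy had 634 and 699 in E728Q heads, against 2564 and 1672 in control heads (-1.63 ± 0.15, adjusted p = 9.88e-05). The control arrays of mdy differed, and the lower of them was still well above E728Q. The acyltransferase genes mino and Agpat3 fell by 1.34 and 0.68. SCAP, the escort of the sterol-regulated transcription factor SREBP, rose, with 1270 and 1278 in E728Q heads and 380 and 346 in control heads (1.75 ± 0.09, adjusted p = 4.94e-06), as did ACC, acetyl-CoA carboxylase (0.46). Among lipases and fatty acid oxidation genes 8 of 16 fell and 1 was higher (median -0.36). Lip4 fell by 1.91, the lipid droplet gene Lsd-2 by 1.08, the thiolase gene yip2 by 0.95 and whd, the carnitine palmitoyltransferase, by 0.65, although a second whd probe set was not called (-0.59). Lsd-2 had 3024 and 3359 in E728Q heads and 7674 and 6275 in control heads.

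Nutrient hormone genes showed a receptor and several secreted factors lower. AkhR, the receptor of adipokinetic hormone, which mobilizes fat and sugar, had 189 and 272 in E728Q heads, against 1604 and 1398 in control heads (-2.65 ± 0.22, adjusted p = 6.33e-05). All 6 arrays with a transgene lay between 189 and 334, and a second AkhR probe set was lower too (-1.39). The activin-like ligand gene daw had 264 and 299 in E728Q heads and 978 and 824 in control heads (-1.64, adjusted p = 2.36e-05). ImpL2, which binds insulin-like peptides, fell by 1.06, and tobi, a glucosidase gene that responds to both insulin and adipokinetic hormone signals, by 1.90. The sugar-responsive factor gene sug rose, with 1766 and 2244 in E728Q heads and 392 and 341 in control heads (2.36 ± 0.14, adjusted p = 8.5e-06). Ilp2, an insulin-like peptide of brain neurons, had 2472 and 2194 in E728Q heads and 1268 and 1306 in control heads (0.82 ± 0.09, adjusted p = 0.000322). In all, 5 of 16 genes of this list were lower and 2 higher.

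Carbohydrate enzymes were called in both directions. AGBE, the glycogen branching enzyme, rose to 7635 and 8270 in E728Q heads, against 2066 and 1991 in control heads (1.97 ± 0.08, adjusted p = 2.49e-06). Tps1, which makes the blood sugar trehalose, rose by 0.58 and Pgi by 0.53. The fat body hexokinase Hex-C fell by 1.24, fbp, a gluconeogenic phosphatase, by 0.91, and the trehalose transporter gene Tret1-1 by 0.76. Gpdh1 was lower by 0.57, with other probe sets at -0.66, -1.67 and, not called, -0.10. Of 21 tested glycolysis and trehalose genes 4 were higher and 5 lower. In the citric acid cycle list 6 of 18 were lower and 2 higher, with Men (-0.57), PCB (-0.55), ScsbetaA (-0.42) and Got2 (-0.38) among the lower. The respiratory chain stood near background, with 4 of 37 higher and 1 lower. A pair of subunits that carry iron-sulfur clusters led it. RFeSP of complex III had 9872 and 9547 in E728Q heads and 5702 and 5681 in control heads (0.82 ± 0.06, adjusted p = 4.48e-05), and SdhB of complex II had 7672 and 6730 in E728Q heads and 4622 and 4725 in control heads (0.66 ± 0.08, adjusted p = 0.000633).

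**Figure D3:**
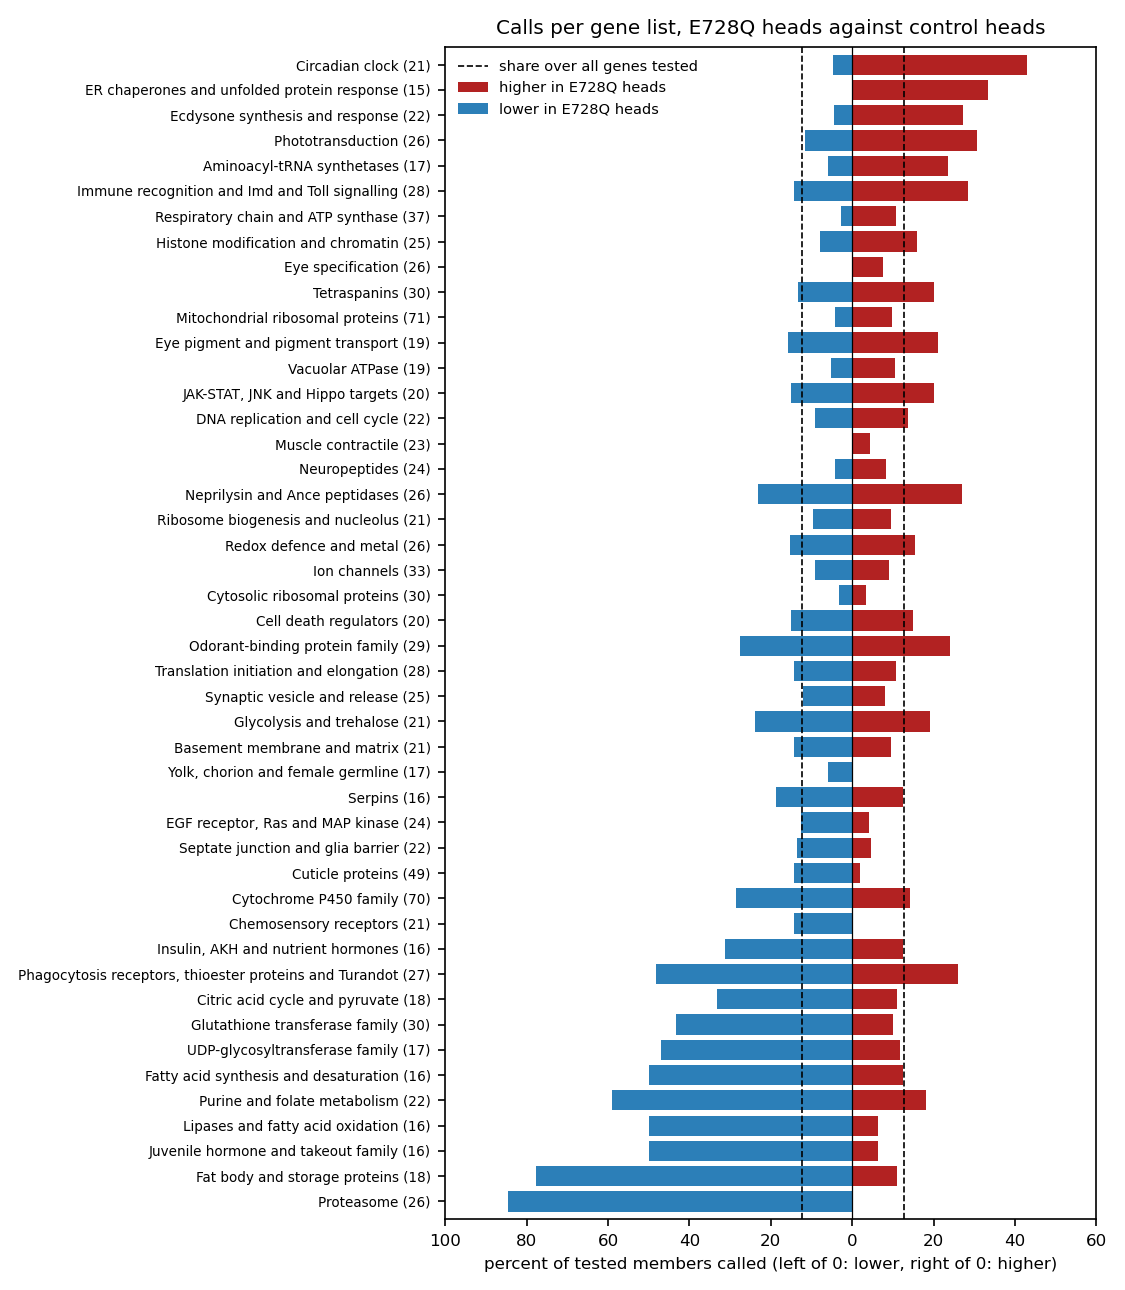
Percent of tested members called higher (red, right of 0) and lower (blue, left of 0) in E728Q heads against control heads for each list with at least 15 tested genes, with the number tested in brackets. Dashed lines mark the shares over all genes, 12.7% higher and 12.4% lower, and the proteasome, fat body and purine bars reach farthest to the left.

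The proteasome, the protease complex that degrades ubiquitin-tagged proteins, was lower by a small amount in nearly every subunit. Of 26 tested subunit genes 22 fell and none rose, and none was higher at an unadjusted p under 0.05 in limma. The median was -0.34 and the values ran from -0.57 to -0.01. Rpn11, the deubiquitinase of the lid, had 2682 and 2458 in E728Q heads, against 4136 and 3575 in control heads (-0.57 ± 0.08, adjusted p = 0.0014). Rpt2, an ATPase of the base, had 1817 and 1799 in E728Q heads and 2818 and 2428 in control heads (-0.54 ± 0.08, adjusted p = 0.00102). Rpn3 and Rpn2 fell by 0.53 and 0.46. Prosbeta6, Prosbeta7, Rpn13 and Rpt4 were not called. The count depended on the setting: it was 6 and 12 when control replicate 1 or 2 was left out, 7 and 6 when E728Q replicate 1 or 2 was, 8 without the mean-variance trend and 13 on deposited values, and 6 subunits were called under every alternative. Control replicate 1 was the higher control array for each subunit named here.

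Chaperones of the endoplasmic reticulum, which fold secreted proteins, leaned the other way, with 5 of 15 higher and none lower, also at an unadjusted p under 0.05. The count was 3 without control replicate 1 and without E728Q replicate 2. CaBP1, a protein disulfide isomerase, had 1852 and 2049 in E728Q heads and 1342 and 1143 in control heads (0.61 ± 0.10, adjusted p = 0.00294). Cnx99A, a calnexin, rose by 0.46 and ERp60 by 0.44. Every group had the heat shock. Of 11 tested cytosolic heat-shock chaperone genes 2 were higher and none lower in limma, with 4 higher and 0 lower at an unadjusted p under 0.05. Hsc70-4 was at 22590 and 22350 in E728Q heads and 21468 and 20695 in control heads, and Hsp68 at 11009 and 11342 in E728Q heads and 12668 and 12458 in control heads, neither of them called. Hsp26 (0.32) was called, but not on deposited values (adjusted p = 0.0612) or without control replicate 1 (adjusted p = 0.0525). Hsc70-2, a low-signal member, had 222 and 256 in E728Q heads and 48.6 and 4.13 in control heads, with a log2 fold change of 2.76 that ran from 1.44 to 3.57 over the alternatives.

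Translation genes were near background. The release factor gene eRF3 rose, with 2928 and 3331 in E728Q heads and 1384 and 1534 in control heads (1.06 ± 0.12, adjusted p = 0.000382), and eIF4E1, the cap-binding protein, fell by 0.40. In the whole list 3 of 28 were higher and 4 lower. The transfer RNA synthetases CysRS, AsnRS and LeuRS rose by 1.14, 0.63 and 0.59, in a list with 4 of 17 higher and 1 lower. Cytosolic ribosomal proteins had 1 of 30 called in each direction, and mitochondrial ribosomal proteins 7 of 71 higher and 3 lower.

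Detoxification enzymes changed in many members, more often downward. Cytochromes P450 oxidize foreign and endogenous compounds, and glutathione transferases and UDP-glycosyltransferases attach soluble groups. Among 70 tested P450 genes 20 fell and 10 rose, with 14 to 17 lower and 4 to 9 higher when one array was left out. Cyp6a23 had 2227 and 2444 in E728Q heads, against 392 and 376 in control heads (2.53 ± 0.12, adjusted p = 3.41e-06). Cyp6g1, known for its role in insecticide resistance, had 1176 and 1139 in E728Q heads and 2844 and 2791 in control heads (-1.28 ± 0.10, adjusted p = 4.13e-05). Cyp12c1 and Cyp4aa1 rose by 1.89 and 1.35, and Cyp4ac1 and Cyp28d1 fell by 1.33 and 1.06. Of 30 glutathione transferase genes 13 were lower and 3 higher (median -0.32), and 7 were lower after leaving out either control array or E728Q replicate 1. GstD2 fell by 1.65, GstE7 by 1.18 and GstE3 by 0.95, against the large rise of GstD9 above and a rise of 1.02 in GstD10. Members of this family are similar in sequence, and how far probes cross-hybridize was not tested. Among 17 UDP-glycosyltransferase genes 8 fell and 2 rose. Ugt35C1 had 283 and 305 in E728Q heads and 1803 and 1605 in control heads (-2.48 ± 0.11, adjusted p = 2.82e-06). It was 365 and 330 with wild-type EYA and 145 and 127 with D493N. Ugt35B1 and Ugt49C1 fell by 1.37 and 0.78, and Ugt36E1 rose by 1.41.

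Antimicrobial peptide genes were lower where they were called, and recognition and signalling genes were called in both directions. Of 11 tested antimicrobial peptide genes 5 fell and none rose, with 1 higher at an unadjusted p under 0.05 (median -0.89, 4 or 5 lower when one array was left out). BomBc2, a Bomanin peptide of the Toll pathway, had 3919 and 3742 in E728Q heads, against 14091 and 11955 in control heads (-1.73 ± 0.10, adjusted p = 9.67e-06). Mtk, Metchnikowin, had 1070 and 1156 in E728Q heads and 3182 and 2716 in control heads (-1.40 ± 0.19, adjusted p = 0.000917). BomBc3 and BomS2 fell by 1.39 and 0.89. Def (-1.36) lost its call under 5 alternatives, among them without control replicate 1 (adjusted p = 0.0859) and without control replicate 2 (adjusted p = 0.153). In recognition and signalling 8 of 28 rose and 4 fell. PGRP-SB1, a secreted amidase, fell, with 340 and 338 in E728Q heads and 1954 and 1284 in control heads (-2.18 ± 0.20, adjusted p = 0.000105). The Toll pathway kinase pll rose by 1.58, the protease gene grass upstream of Toll by 1.23 and PGRP-LB, which degrades peptidoglycan, by 1.02. PGRP-SB1 thus moved opposite to PGRP-SC2 and PGRP-LB.

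Genes of the Nimrod family, made largely by hemocytes and fat body, were mostly higher in a list of phagocytosis receptors and related genes. Secreted growth factor and stress peptides in the same list were lower. In that list 13 of 27 fell and 7 rose (9 to 12 lower and 6 or 7 higher when one array was left out). NimB1 had 519 and 681 in E728Q heads, against 128 and 96.3 in control heads (2.24 ± 0.21, adjusted p = 0.000116). NimB3, NimC1 and NimB2 rose by 1.69, 1.50 and 1.13. NimC4, the receptor Simu for dead cells, fell, with 148 and 146 in E728Q heads and 692 and 619 in control heads (-2.07 ± 0.22, adjusted p = 0.000253). The humoral stress gene TotC had 894 and 500 in E728Q heads and 2513 and 2209 in control heads (-1.81 ± 0.31, adjusted p = 0.003), with E728Q replicates that differed from each other. The imaginal disc growth factor gene Idgf3 fell by 1.07. Stat92E, the transcription factor that drives Turandot genes, fell by 0.40.

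The circadian clock list had the largest excess of higher genes among lists of more than 15. The clock is a loop in which Clock and Cycle activate period, timeless and vrille, whose products feed back on them. Of 21 genes 9 rose and 1 fell, and 5 or 6 were higher when one array was left out. The repressor gene per had 1882 and 1948 in E728Q heads, against 512 and 512 in control heads (1.82 ± 0.09, adjusted p = 3.59e-06). The 2 control arrays of per were equal after rounding, and it was 2230 and 1963 with wild-type EYA and 2212 and 2525 with D493N. The repressor of Clock, vri, had 5933 and 5929 in E728Q heads and 2937 and 2748 in control heads (1.08 ± 0.06, adjusted p = 6.66e-06). Pdf, the neuropeptide of clock neurons, had 2485 and 2449 in E728Q heads and 1669 and 1650 in control heads (0.54 ± 0.07, adjusted p = 0.000949), and lark, an RNA-binding regulator, rose by 0.78. The main tim probe set was not called, with 5158 and 4800 in E728Q heads and 5417 and 4792 in control heads, whereas a second one had 2774 and 3078 in E728Q heads and 1091 and 1009 in control heads and a log2 fold change of 1.42. The activator genes Clk (-0.41) and cyc (0.02) were not called. The output gene dyw fell by 1.44, with 536 and 390 in E728Q heads and 1510 and 1018 in control heads. The calls of cwo (0.62), Slob (1.02) and cry (0.33) were lost without control replicate 1 (adjusted p = 0.0713, 0.0613 and 0.161). The time of day of collection is not given in the labels.

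**Figure D4:**
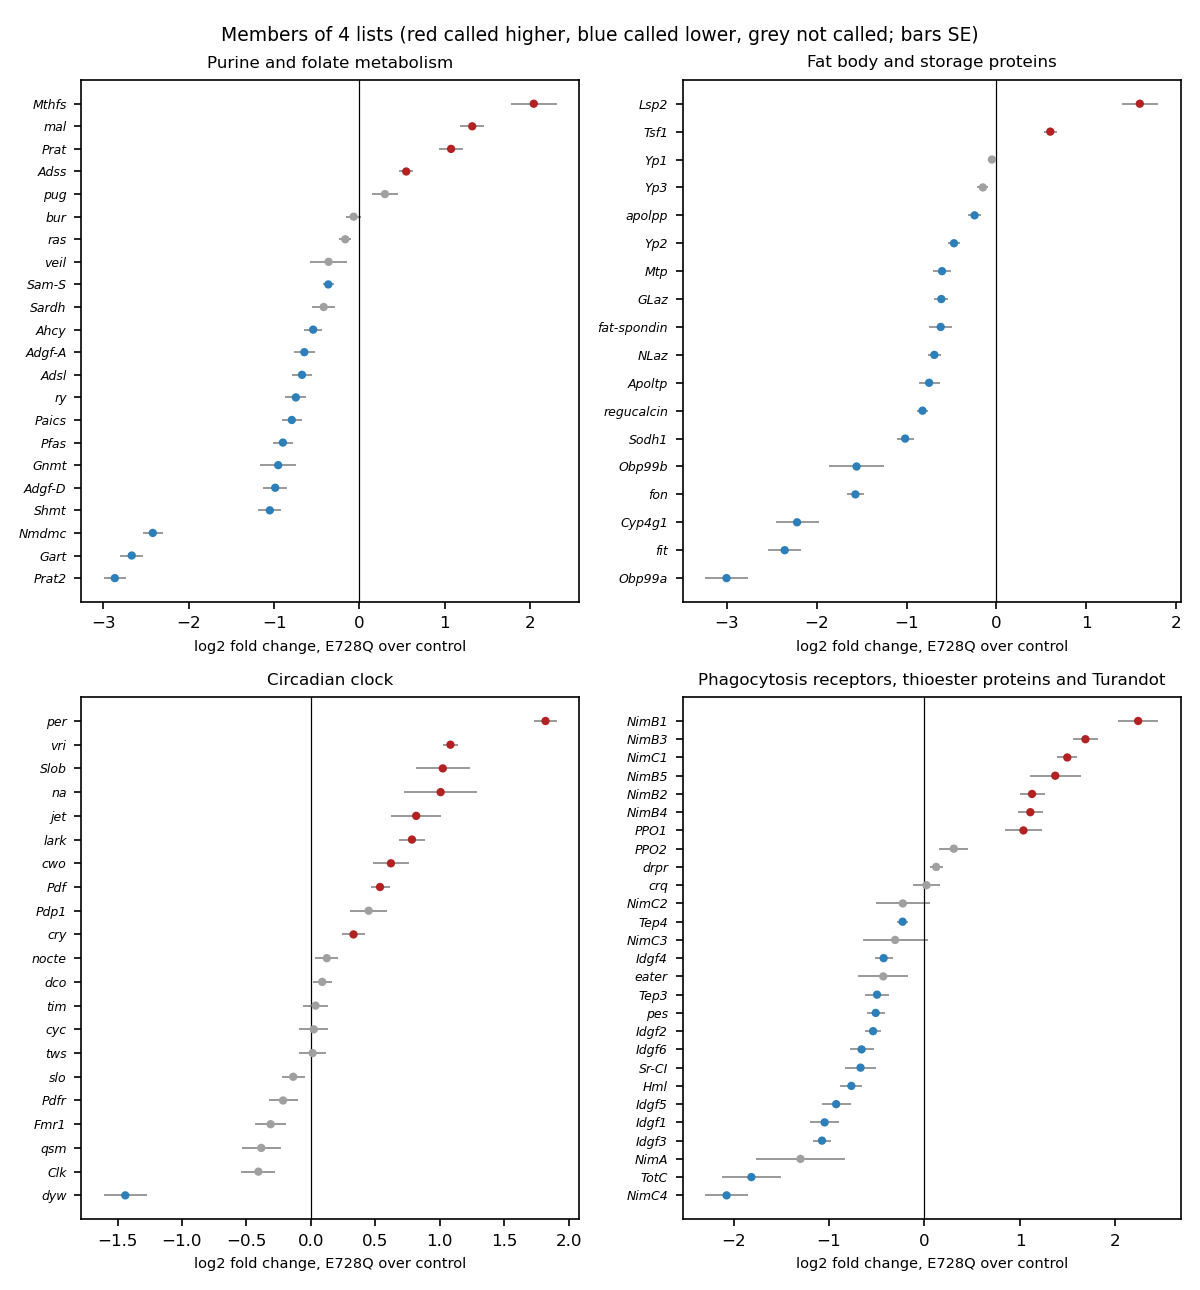
Log2 fold change of E728Q heads over control heads with its SE (horizontal axis) for each tested member of 4 lists, in red where called higher, blue where called lower and grey where not called. Most purine and fat body genes lie left of 0, and 9 of 21 clock genes are red. The genes NimB1 to NimB5 and NimC1 stand to the right of the Idgf and TotC genes, and NimC4 lies farthest left in its list.

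Genes of eye specification and eye development, eya itself and its partner so among them, were below background in calls, with 2 of 26 higher and none lower. At an unadjusted p under 0.05 in limma 7 were higher and 1 was lower. Of all 11261 probe sets 3906 were under that threshold, in either direction. The signalling gene dpp had 656 and 664 in E728Q heads, against 383 and 385 in control heads (0.73 ± 0.09, adjusted p = 0.000495). The Runx gene lz (0.59) was not called without control replicate 2 (adjusted p = 0.0571) and without E728Q replicate 2 (adjusted p = 0.0642). The EYA partner gene so had 488 and 379 in E728Q heads and 327 and 343 in control heads and was not called (0.32, adjusted p = 0.134), nor were ey (0.13) and dac (0.01).

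Of 19 tested genes of eye pigment and its transport 4 were called higher and 3 lower (median 0.01), and 1 higher and 3 lower under every alternative. The lower ones were the enzyme genes se, pr and ry. The gene se, a glutathione transferase that makes the red drosopterin pigments, had 1983 and 1636 in E728Q heads, against 8721 and 7945 in control heads (-2.15 ± 0.17, adjusted p = 4.5e-05). The pigment precursor transporter gene bw had 1989 and 1738 in E728Q heads and 604 and 591 in control heads (1.55 ± 0.08, adjusted p = 5.93e-06), and its second probe set gave the same 1.55. The pteridine synthesis gene pr fell by 0.84. Control flies of W1118 lack the partner of Brown, White, and white itself was not analysed here.

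In phototransduction 8 of 26 genes were called higher and 3 lower, most of them by little, and only 2 to 4 were higher when one array was left out and 2 on deposited values. The lipid phosphatase gene laza, which limits phosphatidic acid after light, had 4895 and 5500 in E728Q heads, against 2382 and 2130 in control heads (1.20 ± 0.09, adjusted p = 3.01e-05). The carotenoid uptake and cleavage genes ninaD and ninaB fell by 1.42 and 0.57, and stops rose by 0.51. The channel genes trp and trpl were not called (0.00 and 0.18).

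Glial genes were called in both directions. Of 9 tested glia markers 1 was higher and 2 were lower (median -0.16), and of 22 genes of septate junctions and the glial barrier 1 was higher and 3 were lower (median -0.05). Gat, the GABA transporter of astrocyte-like glia, had 789 and 1077 in E728Q heads, against 2783 and 2394 in control heads (-1.48 ± 0.27, adjusted p = 0.00449). The receptor gene moody of the blood-brain barrier had 6235 and 7319 in E728Q heads and 3365 and 2794 in control heads (1.15 ± 0.12, adjusted p = 0.000171). The astrocyte gene alrm (-0.94) lost its call without control replicate 1 (adjusted p = 0.0523), control replicate 2 (adjusted p = 0.0667) or E728Q replicate 1 (adjusted p = 0.0745). The pan-glial transcription factor gene repo was at 1581 and 1706 in E728Q heads and 1965 and 1766 in control heads and was not called (-0.21, adjusted p = 0.0996). Glutamine synthetase Gs1 fell by 0.54, the GABA receptor gene Rdl by 0.77 and the potassium channel gene Irk2 by 0.41, and the channel gene Ih rose by 0.50. Of 33 ion channel genes 3 were called in each direction. The neuronal gene elav had 1556 and 1589 in E728Q heads and 1457 and 1170 in control heads and was not called (0.24).

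Of 26 tested neprilysin and Ance metallopeptidase genes, Nepl4 and Ance-4 above included, 7 were higher and 6 lower. The neprilysin gene Nep7 had 1660 and 1972 in E728Q heads, against 331 and 293 in control heads (2.46 ± 0.17, adjusted p = 2.36e-05). Nep4 and Nepl18 rose by 1.36 and 0.88, and Nepl11 fell by 1.18. In the list of juvenile hormone and takeout family genes, which holds hormone-binding-like proteins, enzymes and receptors, 8 of 16 were lower and 1 was higher (median -0.44, 5 or 6 lower when one array was left out). Jhbp5 had 230 and 226 in E728Q heads and 825 and 750 in control heads (-1.75 ± 0.12, adjusted p = 2.35e-05), Jhbp7 fell by 1.11 and Jhbp13 by 0.54. The other lower members included the epoxide hydrolase gene Jheh2 (-0.31) and the response gene Kr-h1 (-0.51), neither of them called without control replicate 1 (adjusted p = 0.108 and 0.0693). Cuticle genes Cpr62Bb, TwdlT and Vajk1 fell by 1.48, 1.28 and 1.23 and Cpr67B rose by 0.88, in a list with 7 of 49 lower and 1 higher. The integrin gene scb and the laminin gene LanB1 fell by 0.92 and 0.75, in a matrix list with 3 of 21 lower and 2 higher, prc among the higher. Serpin genes Spn88Eb and Spn28Dc fell by 1.59 and 0.69 and Spn47C rose by 0.99, with 3 of 16 lower and 2 higher.

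Odorant-binding proteins had 7 of 29 higher and 8 lower. Under every alternative 3 of these were called higher and 3 lower. Besides Obp99a these were Obp56a (-1.22), Obp99c (-0.81), Obp8a (1.07), Obp83ef (1.32) and Obp99d. Obp99d had 433 and 367 in E728Q heads, against 98 and 96.7 in control heads (1.85 ± 0.13, adjusted p = 2.78e-05). Some others replicated less well. Obp83b had 1972 and 1431 in E728Q heads and 126 and 672 in control heads, Obp19a 649 and 540 in E728Q heads and 65.3 and 223 in control heads, and Obp84a 280 and 239 in E728Q heads and 48.1 and 139 in control heads. Control replicate 1 was the lower control array for all 3, and without it their adjusted p values were 0.136, 0.183 and 0.14. Among 21 tested chemosensory receptor genes 3 were lower, and Ir76a fell by 1.61.

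Cell cycle and chromatin genes were near background in calls, with some large values. The replication genes Mcm2 and Orc1 rose by 1.93 and 1.41 and the retinoblastoma homolog Rbf by 1.16, with 3 of 22 higher and 2 lower in that list. Mcm2 had 529 and 569 in E728Q heads and 105 and 155 in control heads. In the chromatin list 4 of 25 were higher and 2 lower. There the deacetylase gene HDAC1 rose by 1.32 and the insulator gene su(Hw) by 0.67. The insulator gene CTCF had 2084 and 2579 in E728Q heads and 539 and 550 in control heads (2.02 ± 0.12), but its 2 other probe sets were not called (-0.19 and -0.20). The ecdysone synthesis P450 gene sad had 153 and 148 in E728Q heads and 7.51 and 6.61 in control heads, with a log2 fold change of 2.78 that ran from 1.22 to 3.81 over the alternatives. Among cell death regulators the Bcl-2 family gene Debcl rose by 0.87, with 3 of 20 called in each direction. H, the Hairless repressor of Notch targets, rose by 1.16, and its second probe set by 0.97. In the Notch pathway list 2 of 14 were higher and 1 lower.

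E728Q heads were also set against heads with wild-type EYA, which carry the same driver. Far fewer genes differed. In limma 80 of 11261 probe sets were called (0.71%), 40 higher and 40 lower, or 34 genes higher and 29 lower. The call of 5 of these 63 genes held under every alternative: CG14275, SPARC and Tsp97E were higher in E728Q heads and Ctr9 and LanA lower. With one array left out, 11 to 29 probe sets were called. LanA, a laminin chain of basement membranes, had 811 and 623 in E728Q heads, against 2999 and 2699 in wild-type EYA heads (-2.05, adjusted p = 0.0011). With 563 and 796 in D493N heads and 940 and 952 in control heads, LanA was high on the wild-type arrays and low on the other 6. Ctr9, a subunit of the Paf1 complex that accompanies RNA polymerase, had 964 and 838 in E728Q heads, against 2354 and 2093 in wild-type EYA heads (-1.35, adjusted p = 0.000317). It was 857 and 908 in D493N heads and 3672 and 3592 in control heads, so both mutants were lowest and control highest.

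The matrix glycoprotein gene SPARC had 6372 and 6781 in E728Q heads, against 2679 and 2271 in wild-type EYA heads (1.36, adjusted p = 0.000624). The tetraspanin gene Tsp97E had 3164 and 3109 in E728Q heads, against 1452 and 1403 in wild-type EYA heads (1.07, adjusted p = 0.000493). Both were low on the wild-type arrays alone, with SPARC at 6278 to 7633 and Tsp97E at 2908 to 3568 on the D493N and control arrays. These 2 genes lie close together on the chromosome. A stretch of 22 neighbouring tested genes from scrib to Tsp97E, in the order of the Release 6 annotation and chosen after the values were seen, held 13 of the 34 genes that were higher than with wild-type EYA. None in it was lower, also at an unadjusted p under 0.05, and outside it 21 were higher and 29 lower. In the stretch 20 of 22 log2 fold changes against wild-type EYA were above 0, with a median of 0.86. Against D493N the median of the same genes was 0.03 and against control 0.17. The prohormone convertase gene amon in this stretch had 3872 and 3844 in E728Q heads, 1894 and 1871 in wild-type EYA heads, 3675 and 4763 in D493N heads and 3855 and 3814 in control heads. Its call against wild-type EYA (0.97) was lost without either wild-type array (adjusted p = 0.0851 and 0.0592).

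Against D493N heads, the other mutant, 19 of 11261 probe sets were called (0.169%), 9 higher and 10 lower, or 7 genes in each direction. The count changed with the array left out. It was 1096 without D493N replicate 2, 63 without D493N replicate 1 and 4 without E728Q replicate 2, and no gene kept its call under every alternative. Detoxification genes were among the higher ones. Cyp28a5 had 3196 and 3031 in E728Q heads, against 1637 and 1256 in D493N heads (1.14), and Cyp6g1 had 1176 and 1139 in E728Q heads, against 551 and 632 in D493N heads (0.98). Their calls were lost in a fit of these 2 groups alone (adjusted p = 0.168 and 0.161) and without either E728Q array (adjusted p = 0.0673 and 0.0767 for both genes). Among the lower genes CG33296 had 221 and 192 in E728Q heads, against 642 and 565 in D493N heads (-1.44), and heix, a prenyltransferase gene, had 573 and 564 in E728Q heads, against 1080 and 1129 in D493N heads (-0.90). Without E728Q replicate 2 their adjusted p values were 0.0904 and 0.0767.

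Called in one direction against all 3 other groups were 6 of 11261 probe sets (0.0533%), 1 higher and 5 lower. The 3 comparisons share the E728Q arrays, so the count is a description. CG14275 was the higher one, with 3609 and 3763 in E728Q heads, 1888 and 1746 in wild-type EYA heads, 2045 and 2268 in D493N heads and 1952 and 1796 in control heads. Its log2 fold change was 0.94 against wild-type EYA (adjusted p = 0.000911), 0.81 against D493N (adjusted p = 0.00644) and 0.94 against control (adjusted p = 4.66e-05). The call against D493N was lost without E728Q replicate 2 (adjusted p = 0.0767), with only the groups compared (adjusted p = 0.161) and without the mean-variance trend (adjusted p = 0.0593). All 6 other arrays lay between 1746 and 2268.

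Tektin-C had 78.5 and 9.75 in E728Q heads, 763 and 860 in wild-type EYA heads, 930 and 853 in D493N heads and 1695 and 1444 in control heads. Its call against D493N (-4.12) was lost with only the groups compared and without the mean-variance trend. Against wild-type EYA its log2 fold change was -4.06, and the call was lost without either wild-type array (adjusted p = 0.1 and 0.105). Of 10 tested genes of the testis list, Tektin-C and alphaTub84D were called, and alphaTub84D (-0.81) lost its call without control replicate 1 (adjusted p = 0.157). CG42329 had 2.15 and 3.81 in E728Q heads, 80.3 and 75.3 in wild-type EYA heads, 143 and 97.8 in D493N heads and 430 and 492 in control heads. Its call against D493N (-2.73) was lost with only the groups compared. Its call against wild-type EYA (-2.22) was lost without wild-type replicate 1 (adjusted p = 0.0819) and without wild-type replicate 2 (adjusted p = 0.0592). A probe set without a symbol had 1042 and 807 in E728Q heads, 3722 and 3761 in wild-type EYA heads, 3798 and 4585 in D493N heads and 6081 and 5287 in control heads. For these 3 probe sets E728Q arrays were lowest, control arrays highest and the other transgenic arrays between them.

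The remaining decreases were smaller. CG5953 had 11864 and 11381 in E728Q heads, 15313 and 13889 in wild-type EYA heads, 17069 and 18093 in D493N heads and 20116 and 20905 in control heads, and a second, weaker CG5953 probe set did not differ in limma from control (0.18). The call of the main CG5953 probe set against wild-type EYA (-0.40, adjusted p = 0.0463) was lost under 8 alternatives, among them each array left out of that pair. Its call against D493N (-0.52) was lost under 7 alternatives. Atg4a, a protease that processes the autophagy protein Atg8a, had 1017 and 1023 in E728Q heads, 1502 and 1382 in wild-type EYA heads, 1628 and 1616 in D493N heads and 1371 and 1248 in control heads. E728Q arrays were the lowest of the 8 for Atg4a. Against control (-0.39) it was not called without control replicate 1 (adjusted p = 0.0514), and its calls against wild-type EYA (-0.55) and D493N (-0.62) were lost under 6 and 4 alternatives.

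**Figure D5:**
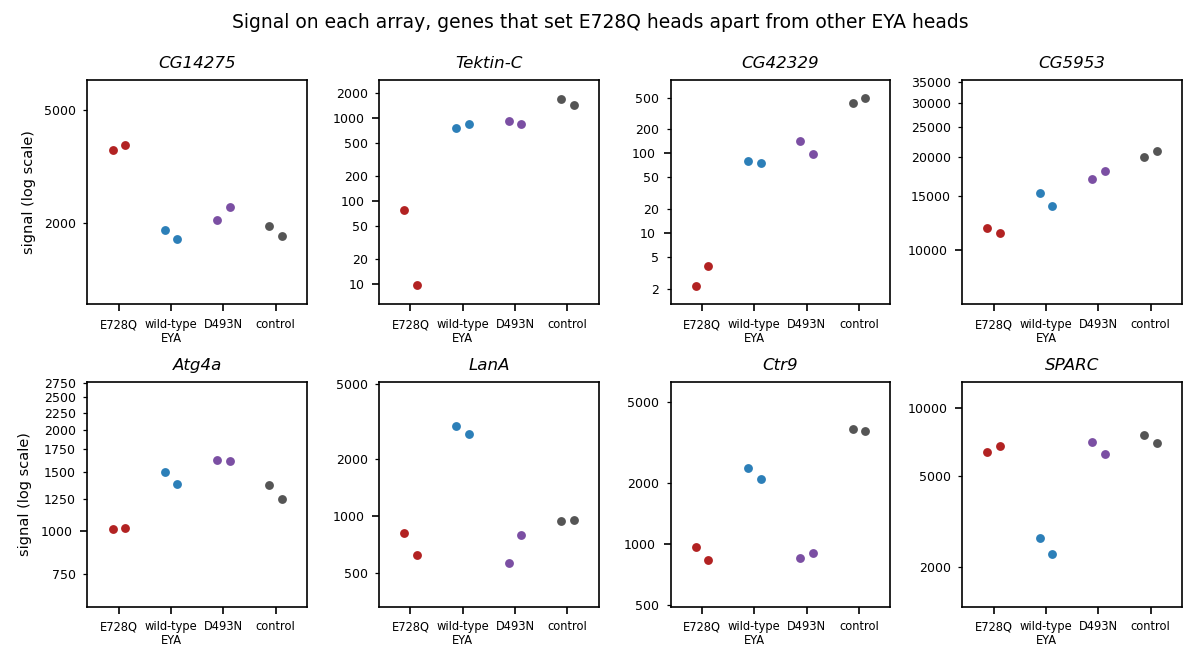
Deposited signal (log axis) on each of the 8 arrays, each point an array, for 8 genes in E728Q, wild-type EYA, D493N and control heads from left to right. CG14275 is highest and Tektin-C, CG42329, CG5953 and Atg4a are lowest on the 2 E728Q arrays, while LanA and SPARC differ on the 2 wild-type EYA arrays.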

How the data were processed

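The deposited values are linear intensity values, 1 per probe set and array, with a median of 100 on each of 8 arrays. Per the submitters' processing notes, GCOS was used, the array maker's software, with no version or summary method stated there. Of 18952 probe sets, 183 Affymetrix controls were left out. Trimmed means (percentiles 2 to 98) differed by 11.1% between arrays, above a tolerance of 5%, so quantile normalization was applied. Before log2, 17.5 was added, a pseudocount equal to percentile 25 of the deposited values. Tests covered the 60% of probe sets highest in mean, a filter that a gene present in 1 group can pass through that group. Printed signals are deposited intensity values, and log2 fold changes are of normalized values.

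All 8 arrays entered 1 linear model in limma 3.58.1 (R 4.3.3), with 4 residual and 4.75 prior degrees of freedom and a mean-variance trend. Tests were two-sided, Benjamini-Hochberg adjusted over all probe sets, with calls at an adjusted p under 0.05, and the model was tested on simulated data. SE is the moderated standard error.

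In the array annotation 13647 probe sets had 1 symbol, 402 had several and 4903 had none. Symbols were updated for 13544 by gene identifier. The annotation of Release 6 served only for names and neighbours. Of the list entries, 42 matched no gene.

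Genes named are the 15 of largest change per direction with both values of the higher group at least 100 and no overlap between groups, up to 6 called and 3 most abundant members of each of 56 lists, genes called against all other groups, cell type markers and eya. Other genes were chosen after their values were seen. Lists, rules and genes were chosen with earlier results of these data known. Alternatives were other normalization, pseudocounts and filters, no trend, only the groups compared, a replicate block and each array left out.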

Additional observations from a re-analysis of the deposited data

How the results depend on the processing

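With one array left out, the comparison with control called 1483 to 1632 probe sets in place of 2648, and it called 2220 without the mean-variance trend and 3296 with only the groups compared. Against wild-type EYA, 80 probe sets became 46 with no filter on low probe sets, 230 with only the groups compared, 23 without the trend and 11 to 29 with one array left out. Against D493N, 19 became 3 with only the groups compared, 7 without the trend and 4 to 1096 with one array left out, the highest without D493N replicate 2. Against all 3 other groups, 6 became 1 with only the groups compared, 2 without the trend and 2 to 45 with one array left out. The fit with fewer groups has fewer arrays, and for the other settings the cause was not tested. With the replicate number as a block, 2432 probe sets were called against control, 46 against wild-type EYA, 15 against D493N and 5 against all 3 other groups. Deviations of same-numbered arrays correlated at -0.144 to 0.0938 between groups. These low values cannot exclude that same-numbered samples were handled together. Of 399 named genes 290 were called, 183 of these under each of the alternatives (at most 12) in which they were tested, and 0 changed direction. Signals close to the pseudocount limit the fold changes of low genes.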

Other observations

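Some called genes lay next to each other in the order of tested genes of the Release 6 annotation, and the runs given here were chosen after their values were seen. Over all genes tested 12.7% were called higher and 12.4% lower. Whether such shares alone give runs of this length was not tested. The longest run was 7 higher genes from IleRS to CG11425, with Ten-m, laza, CG11438, CG11437 and CG11426 between them. CG11425 had 9069 and 10344 in E728Q heads, against 1243 and 1136 in control heads (log2 fold change 2.98). The other 6 had log2 fold changes of 0.32 (Ten-m) to 1.20 (laza), but not all calls held. That of IleRS (0.41) was lost without control replicate 1 (adjusted p = 0.0507) and without E728Q replicate 2 (adjusted p = 0.0528), and that of Ten-m without control replicate 1 (adjusted p = 0.0634), control replicate 2 (adjusted p = 0.0683) or E728Q replicate 1 (adjusted p = 0.0893). Of 5 neighbouring genes from ytr to Pym, ytr had 7172 and 8602 in E728Q heads, against 2626 and 2356 in control heads (1.67), bgcn, a partner of the germline differentiation factor Bam, had 118 and 100 in E728Q heads, against 11.9 and 3.31 in control heads, and eIF6 rose by 0.88. The calls of gbb (0.48) and Pym (0.55) in this run were lost without control replicate 1 (adjusted p = 0.105 and 0.0802).

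Runs of 5 lower genes went from CG10553 to CHKov2 and from GstE5 to imd. Some calls in each of these were lost under alternatives. Neighbouring Bomanin genes were lower as another run of 5. BomS4 had 4430 and 5184 in E728Q heads, against 10483 and 9216 in control heads (-0.99), and BomT2 had 3570 and 3742 in E728Q heads, against 10872 and 8928 in control heads (-1.41). The others were BomS5 (-0.80), BomS2 (-0.89) and BomBc2 (-1.73). In a run of 5 lower genes with Ugt35C1 and Ugt35B1 at its ends, CG4757 had 90.6 and 96.6 in E728Q heads, against 565 and 662 in control heads (-2.54), and the call of Ugt302K1 (-0.95) was lost without control replicate 1 (adjusted p = 0.136). In the run NimB1 to NimB5, NimB4 rose by 1.11, and the call of NimB5 (1.37) was lost without E728Q replicate 2 (adjusted p = 0.0526). Members of these families are similar in sequence, and how far their probes cross-hybridize was not tested.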
